A study of Homo sapiens with 5 samples.

Results

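Respiratory complex I genes were examined in *MTSS1* knockout and control derivatives of TF-1, a human erythroleukemia cell line used as a model of acute myeloid leukemia (AML). Members were chosen by name: all protein-coding genes of the count table whose symbol starts with NDUF, followed by A, AB, AF, B, C, S, or V and a number, with pseudogenes excluded. This gave 47 of 27328 genes, of which 45 of 14391 had enough counts to be tested. They are called complex I genes throughout. Of them, *NDUFA4* (tested) and *NDUFA4L2* (not tested) are neither subunits nor assembly factors of complex I. The question was how the mRNAs of this enzyme differ between cells with and without *MTSS1*, which encodes a scaffold protein that links membranes to the actin cytoskeleton.

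The control group consisted of 2 pools (sgCtrl 1 and 2) that carried Cas9 and an sgRNA against the *renilla luciferase* gene. The knockout group consisted of 3 pools that carried Cas9 and 1 of 3 sgRNAs against *MTSS1* (sgMTSS1_1, sgMTSS1_2, and sgMTSS1_3). Every pool was a mixture of 4 single-cell clones, so the guide and the clones that were picked cannot be told apart, and no drug treatment is named for these samples. A further control pool and a further knockout pool were part of the experiment and are not analysed here. The paper excluded both by an outlier test on principal components of the same expression data. The spread between the remaining pools may therefore understate the spread between all pools prepared. Cells and RNA were measured in bulk, in which fewer cells of a type and less RNA per cell cannot be told apart.

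Complex I, or NADH:ubiquinone oxidoreductase, is the entry point of electrons from NADH into the respiratory chain. It is L-shaped: a peripheral arm in the mitochondrial matrix oxidizes NADH and passes electrons through iron-sulfur clusters to ubiquinone, and a membrane arm pumps protons across the inner membrane. Core subunits carry out catalysis, the membrane arm core is encoded by mitochondrial DNA, accessory subunits surround and stabilize the core, and assembly factors help to build the enzyme without being part of it.

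Total counts of the 3′ mRNA libraries were 2849979 and 3408827 for sgCtrl 1 and 2 and 8854899, 5442639, and 5801636 for sgMTSS1_1, sgMTSS1_2, and sgMTSS1_3. Levels are given as CPM, the usual measure of counts relative to the library total, with totals scaled by TMM factors, always in the order sgCtrl 1, sgCtrl 2, sgMTSS1_1, sgMTSS1_2, and sgMTSS1_3. A gene was called differentially expressed if the adjusted p was under 0.05 and the log2-fold change (log2FC, knockout minus control) was above 1 or below -1. Adjusted p-values come from the quasi-likelihood test of edgeR, corrected by the Benjamini-Hochberg method over the 14391 tested genes, unless another tool is named. The sgMTSS1_1 library had the largest total and the largest share of ribosomal protein mRNAs, 17.7% of its counts, against 7.56% and 9.30% in sgCtrl 1 and 2 and 11.9% and 13.9% in the other knockout pools. All 9 listed TF-1 markers were tested, and 0 were called by edgeR or DESeq2 (1 had an unadjusted p under 0.05), with a summed level between 599 and 882 CPM. In the same libraries, summed markers reached at most 11.6 CPM for B cells, 4.70 CPM for T cells, 0.894 CPM for epithelial cells, and 1.04 CPM for fibroblasts.

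*MTSS1* mRNA was measured at 204 and 87.9 CPM in sgCtrl 1 and 2, compared with 104, 139, and 49.9 CPM across the knockout pools. The groups overlapped (log2FC -0.58, SE 0.47, adjusted p = 0.494), and without control pool 1 the log2FC was 0.16. Cas9 cuts do not necessarily remove the transcript, so the mRNA level does not check the labels. According to the paper, the knockout in the pooled clones was verified at the protein level by immunoblot.

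Among the 45 tested complex I genes, *NDUFB7* and *NDUFB8* rose and *NDUFA13* fell by edgeR's test, whereas 42 were not called by it. The 2 genes called higher were 4.44% of those tested, against 4.17% of all genes, and the 1 called lower was 2.22%, against 1.01%. DESeq2 called 9 of the 45 higher (7.08% of all genes), adding *NDUFA1*, *NDUFA3*, *NDUFA4*, *NDUFA8*, *NDUFAB1*, *NDUFB1*, and *NDUFB9*, and 2 lower (2.35% of all genes), adding *NDUFV2*. Of all calls over the transcriptome 80.5% were higher, or 61.9% when offsets for GC content and transcript length were included. An unadjusted p under 0.05 was reached by 13 complex I genes with a positive log2FC, or 28.9% (14.1% of all genes), and by 3 with a negative log2FC, or 6.67% (9.23% of all genes). The plot of log2-fold changes by role shows the genes reported here.

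**Figure D1:**
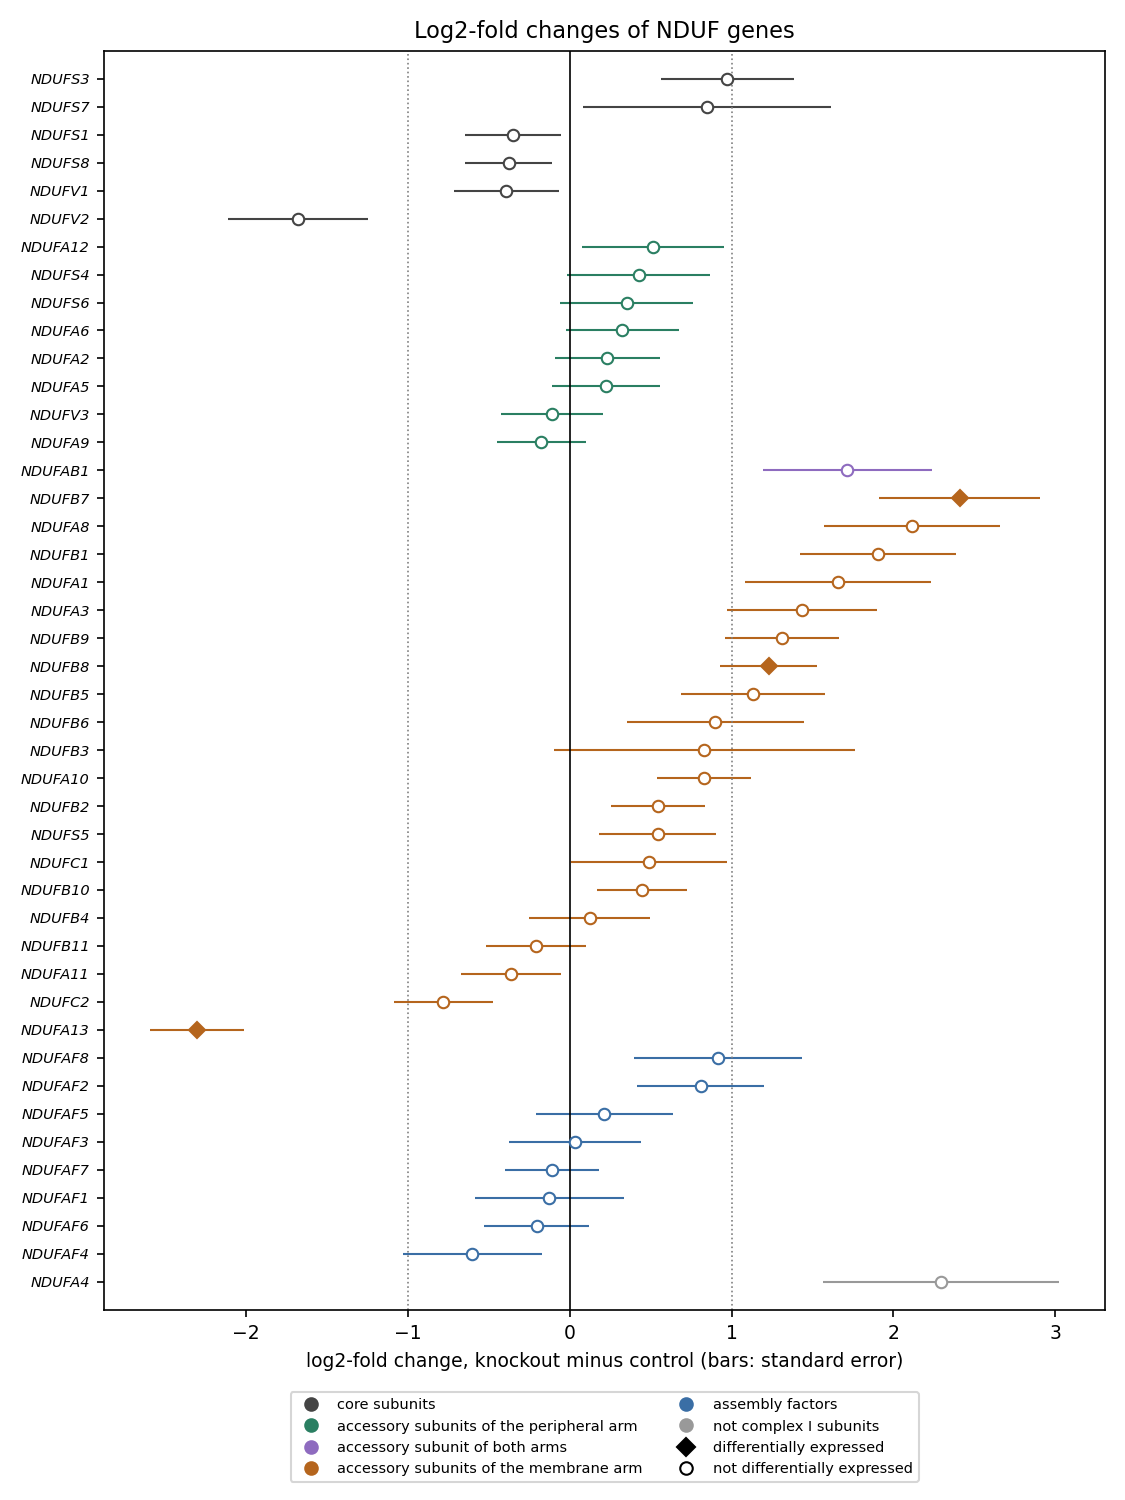
Log2FC (knockout minus control, horizontal axis) of the tested NDUF genes reported here, ordered by role, with bars for the standard error, filled diamonds for called genes and dotted lines at -1 and 1. *NDUFB7* (2.41) and *NDUFB8* (1.23) are the called genes on the right and *NDUFA13* (-2.30) is the one on the left; most membrane arm accessory subunits lie to the right of 0 and the core subunits on both sides.

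The log2FC was above 0 for 31 of 45 complex I genes (68.9%, against 48.3% of all genes), and its median was 0.45, against -0.03 over all genes. All 3 knockout pools exceeded both control pools for 17 genes (37.8%, against 22.2% of all genes) and were below both for 4 genes, namely *NDUFA13*, *NDUFV2*, *NDUFC2*, and *NDUFS8* (8.89%, against 19.2%). The groups overlapped for the other 24 genes.

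The positive median came mostly from 1 pool. sgMTSS1_1 was the highest knockout pool for 43 of 45 genes (95.6%, against 38.2% of all genes), the exceptions being *NDUFS7* and *NDUFB11*, and its level was 1.57 times the mean of the other knockout pools at the median (0.98 over all genes). Relative to the control mean, the median log2 ratio was 0.74 in sgMTSS1_1, -0.00037 in sgMTSS1_2, and 0.03 in sgMTSS1_3. The corresponding medians over all genes were between -0.06 and -0.05 in every knockout pool. Control pool 1 exceeded control pool 2 for 34 of the 45 genes. Without sgMTSS1_1, the median log2FC of complex I genes was 0.0088, against -0.06 over all genes, and 23 of 45 (51.1%) lay above 0, against 46.5%. In that analysis edgeR called 0 of them higher (0.801% of all genes), and 8 had a positive log2FC with an unadjusted p under 0.05 (17.8%, against 11.4% of all genes). *NDUFA13* remained called (log2FC -2.37, adjusted p = 0.0370). With all libraries thinned to the smallest total, the median was 0.46. The part of the ribosomal protein share of sgMTSS1_1 in these values was not tested.

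**Figure D2:**
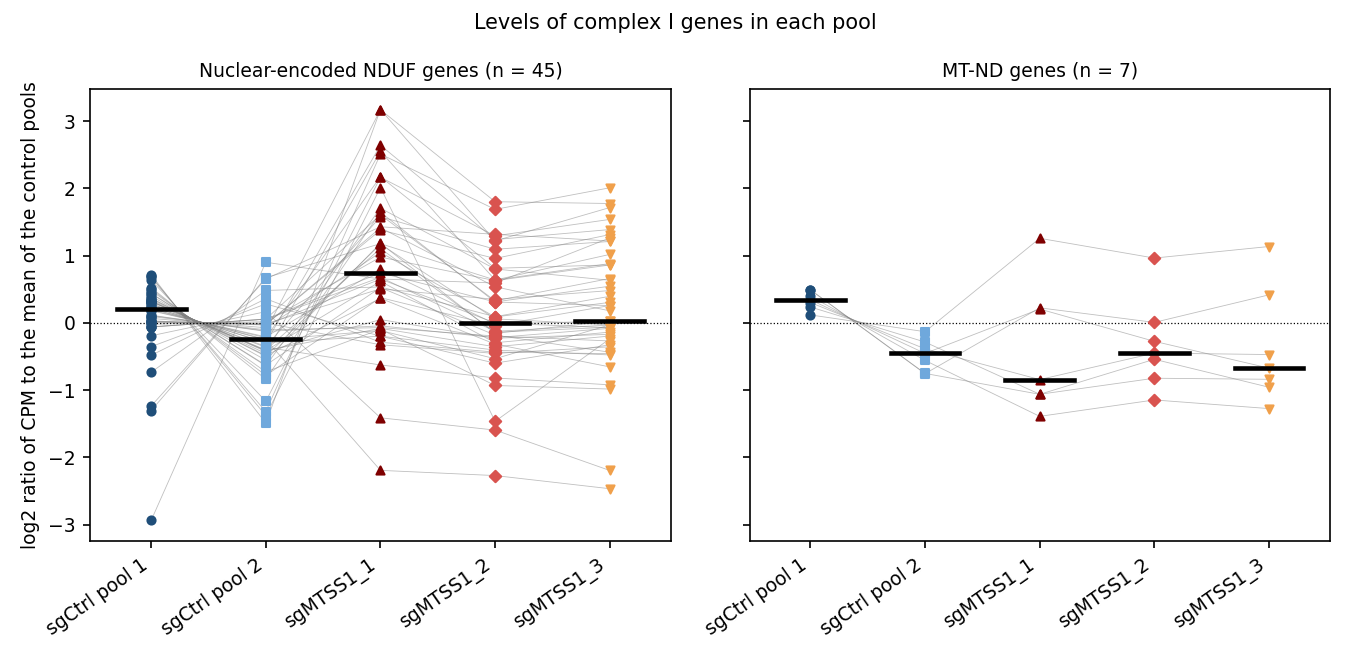
Log2 ratio of each pool's CPM to the control mean (vertical axis) for the 45 tested NDUF genes (left) and the 7 mitochondrially encoded MT-ND genes (right), with 1 point per gene, grey lines joining the points of a gene and black lines at the median of each pool. The median on the left is 0.74 in sgMTSS1_1 but -0.00037 and 0.03 in sgMTSS1_2 and sgMTSS1_3.

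The accessory subunits of the membrane arm held all genes called by edgeR, whereas DESeq2 also called *NDUFAB1*, *NDUFA4*, and *NDUFV2* outside this class. Of 20 members, all of them tested, 2 rose, 1 fell, and 17 were not called; 16 had a log2FC above 0, with a median of 0.83. Over all genes, 4.17% rose and 1.01% fell. All knockout pools lay above both control pools for 12 of the 20 and below for 2, against 22.2% and 19.2% of all genes. sgMTSS1_1 was the highest knockout pool for 19 of the 20, against 38.2% of all genes. Its level was 1.68 times the mean of the other knockout pools at the median (0.98 over all genes). The median transcript length of the class was 663 bases, against 2754 bases over all tested genes.

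*NDUFB7* encodes a membrane arm subunit on the intermembrane space side, and lies at chr19:14566078-14572066, minus strand (GRCh38). Its levels were 18.1 and 15.5 CPM in sgCtrl 1 and 2, compared with 151, 58.7, and 57.6 CPM across the knockout pools. Every knockout pool was thus well above both controls, and sgMTSS1_1 was the highest. The mean was 16.8 ± 1.87 CPM over the control pools (SD, n = 2) and 89.2 ± 53.8 CPM over the knockout pools (SD, n = 3) (log2FC 2.41, SE 0.50, adjusted p = 0.0276), and the knockout mean was 5.31 times the control mean. The call was lost without sgMTSS1_1 (log2FC 1.78, adjusted p = 0.0606) and without control pool 2 (adjusted p = 0.0653).

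*NDUFB8*, a single-pass membrane subunit whose protein is widely used as a marker of assembled complex I, was measured at 74.4 and 72.1 CPM in sgCtrl 1 and 2, compared with 191, 142, and 182 CPM across the knockout pools (chr10:100523740-100530000, minus strand). The control pools were nearly equal and all knockout pools were higher. The mean was 73.3 ± 1.62 CPM over the control pools (SD, n = 2) and 172 ± 25.8 CPM over the knockout pools (SD, n = 3) (log2FC 1.23, SE 0.30, adjusted p = 0.0463). This call was close to the threshold and was lost in 10 of 16 alternative analyses, including each that left out a pool, with adjusted p-values between 0.00516 and 0.281. The last 300 bases of the canonical transcript, from which 3′ libraries are read, include 110 bases that also lie in exons of ENSG00000255339 on the same strand.

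*NDUFA13* encodes a subunit of the membrane arm also known as GRIM-19, which was first described as a mediator of cell death induced by interferon and retinoic acid. It was measured at 193 and 141 CPM in sgCtrl 1 and 2, compared with 36.6, 34.7, and 30.3 CPM across the knockout pools (chr19:19515736-19529054, plus strand). Both control pools were several times higher than any knockout pool, and the knockout pools differed little among themselves. The mean was 167 ± 37.0 CPM over the control pools (SD, n = 2) and 33.8 ± 3.23 CPM over the knockout pools (SD, n = 3) (log2FC -2.30, SE 0.29, adjusted p = 0.00705). *NDUFA13* was called in all 16 alternatives, with log2FC between -2.72 and -2.05 and adjusted p-values of at most 0.0391. Of its last 300 transcript bases, 218 lie in exons of ENSG00000258674 on the same strand, and no count of that gene was analysed here. The adjacent gene *YJEFN3* had 9.38 and 10.1 CPM in sgCtrl 1 and 2, compared with 9.08, 9.57, and 9.22 CPM across the knockout pools (log2FC -0.07, adjusted p = 0.928).

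**Figure D3:**
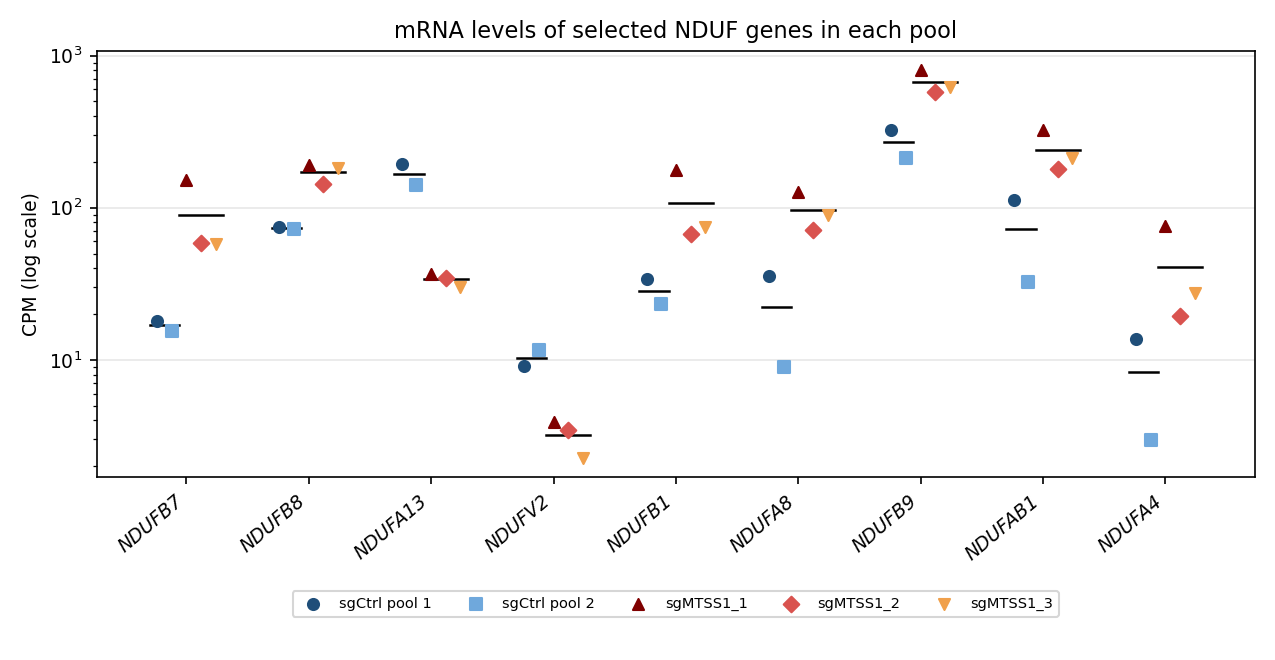
CPM (log scale) of selected complex I genes in each of the 5 pools, with lines at the group means. *NDUFA13* is at 193 and 141 CPM in the control pools and at 30.3 to 36.6 CPM in the knockout pools, whereas *NDUFB7* and *NDUFB8* are higher in every knockout pool than in either control pool.

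Other membrane arm subunits came close to the threshold of edgeR's test without passing it, and some of them passed with another tool. *NDUFB9* encodes an accessory subunit of the LYR family, which binds the acyl carrier protein, and its gene (chr8:124539101-124580648, plus strand) overlaps the *MTSS1* gene (chr8:124550784-124728473, minus strand) on the opposite strand. It was measured at 326 and 211 CPM in sgCtrl 1 and 2, compared with 803, 574, and 622 CPM across the knockout pools. The groups did not overlap (log2FC 1.31, SE 0.35, adjusted p = 0.0631). It was called by DESeq2 (log2FC 1.30, adjusted p = 0.00510), by limma-voom (log2FC 1.33, adjusted p = 0.0483), and by edgeR without control pool 1 (log2FC 1.67, adjusted p = 0.0310). *NDUFB9* was also called when no filter on low counts was used (adjusted p = 0.0199), but not in the other 12 of 16 alternatives. Its log2FC was 1.15 without sgMTSS1_1 (adjusted p = 0.156) and 0.92 once GC and length offsets were applied (adjusted p = 0.100). None of the last 300 bases of its canonical transcript lies in an exon of another gene. For 7 of its 16 annotated transcripts, however, at least 1 of the last 300 bases lies in an exon of *MTSS1*. The same holds for 9 of 18 *MTSS1* transcripts and exons of *NDUFB9*. *TATDN1*, a nuclease family gene that overlaps *NDUFB9* at its other end on the opposite strand, was at 23.1 and 23.2 CPM in sgCtrl 1 and 2, compared with 83.1, 41.2, and 60.5 CPM across the knockout pools (log2FC 1.41, adjusted p = 0.0572). *NDUFB9* and *MTSS1* thus had log2-fold changes of opposite sign, neither of which passed edgeR's test, and the sign for *MTSS1* turned positive without control pool 1.

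*NDUFA8*, a subunit with paired cysteine motifs at the intermembrane space side, was at 35.6 and 8.94 CPM in sgCtrl 1 and 2, compared with 127, 71.9, and 89.8 CPM across the knockout pools (log2FC 2.11, SE 0.54, adjusted p = 0.0547). Control pool 2 was far below control pool 1, but all knockout pools were above both. The log2FC was 1.46 without control pool 2 and 3.44 without control pool 1, and DESeq2 and limma-voom called *NDUFA8* (adjusted p = 0.00188 and 0.0383). *NDUFB1*, among the smallest subunits, was at 33.8 and 23.2 CPM in sgCtrl 1 and 2, compared with 178, 67.3, and 74.6 CPM across the knockout pools (log2FC 1.90, SE 0.48, adjusted p = 0.0522; DESeq2 adjusted p = 0.00290), and its log2FC was 1.31 without sgMTSS1_1. *NDUFA1*, an X-linked subunit needed for assembly, was at 123 and 70.6 CPM in sgCtrl 1 and 2, compared with 568, 151, and 196 CPM across the knockout pools (log2FC 1.66, adjusted p = 0.125), with sgMTSS1_1 far above the other knockout pools. Without sgMTSS1_1 its log2FC was 0.83, and DESeq2 called it over all pools (adjusted p = 0.0326). *NDUFA3* and *NDUFB5*, both single-pass membrane subunits, had log2-fold changes of 1.43 and 1.13 (adjusted p = 0.103 and 0.166), and the knockout pools lay above both controls for each. Without sgMTSS1_1 the values were 0.83 and 0.71, and DESeq2 called *NDUFA3* (adjusted p = 0.0365).

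The remaining membrane arm subunits showed smaller differences. *NDUFB6*, *NDUFB3*, *NDUFA10*, *NDUFB2*, *NDUFS5*, *NDUFC1*, *NDUFB10*, and *NDUFB4* had log2-fold changes from 0.12 to 0.90, and *NDUFB11* and *NDUFA11* had -0.21 and -0.36. *NDUFA10*, a subunit related to nucleoside kinases, was at 96.6 and 99.2 CPM in sgCtrl 1 and 2, compared with 193, 151, and 178 CPM across the knockout pools, which separated the groups (log2FC 0.83, adjusted p = 0.124). *NDUFC2* was the only member of this class besides *NDUFA13* with all knockout pools below both controls, at 245 and 156 CPM in sgCtrl 1 and 2, compared with 130.2, 114, and 106 CPM across the knockout pools (log2FC -0.78, adjusted p = 0.164). The readthrough gene *NDUFC2-KCTD14*, which the naming rule also matches, and *KCTD14* were not analysed here.

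*NDUFAB1* encodes the mitochondrial acyl carrier protein, which occurs in both arms and also serves fatty acid synthesis and iron-sulfur cluster formation. It was measured at 113 and 32.5 CPM in sgCtrl 1 and 2, compared with 327, 179, and 212 CPM across the knockout pools. All knockout pools were above both controls, but the control pools differed widely (log2FC 1.72, SE 0.52, adjusted p = 0.0883). The log2FC was 2.89 without control pool 1 and 1.11 without control pool 2, and DESeq2 called *NDUFAB1* (adjusted p = 0.0125).

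Accessory subunits of the peripheral arm did not separate the groups. Of 9 members, 8 were tested and 0 were called by edgeR or by DESeq2, 0 reached an unadjusted p under 0.05, and all 8 had overlapping groups. Over all genes, edgeR called 4.17% higher and 1.01% lower, so 0 of 8 is close to the share of all genes. An unadjusted p under 0.05 was reached by 14.1% (higher) and 9.23% (lower) of all genes. All knockout pools lay above both controls for 22.2% of all genes and below for 19.2%. The median log2FC was 0.28, from -0.17 for *NDUFA9*, which lies at the junction of the arms, to 0.51 for *NDUFA12*, which *NDUFAF2* resembles. *NDUFA12* was at 79.7 and 43.8 CPM in sgCtrl 1 and 2, compared with 139, 64.5, and 60.5 CPM across the knockout pools, so that only sgMTSS1_1 exceeded both controls. *NDUFS4*, a subunit whose loss is a known cause of Leigh syndrome, was at 56.3 and 34.3 CPM in sgCtrl 1 and 2, compared with 97.5, 41.2, and 43.3 CPM across the knockout pools (log2FC 0.43, adjusted p = 0.609). *NDUFS6*, a zinc-binding subunit, was at 438 and 1016 CPM in sgCtrl 1 and 2, compared with 1054, 776, and 957 CPM across the knockout pools, so that sgCtrl 1 was the lowest pool and sgCtrl 2 lay among the knockout pools. *NDUFA2*, *NDUFA5*, *NDUFA6*, and *NDUFV3* had log2-fold changes of 0.23, 0.22, 0.32, and -0.11.

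*NDUFA7*, the remaining member of the class, did not reach the minimum count for testing, with 2 and 3 counts in sgCtrl 1 and 2, compared with 3, 3, and 2 across the knockout pools. Its low level was thus shared by both groups. Of its last 300 transcript bases, 172 lie in exons of ENSG00000167774 on the same strand.

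Of the 7 nuclear-encoded core subunits, 0 were called by edgeR, 3 had a log2FC above 0, and the median was -0.35. An unadjusted p under 0.05 was reached by 3 of them, and DESeq2 called 1, *NDUFV2*, lower. Of all genes, 14.1% reached that p with a positive log2FC and 9.23% with a negative one, and 48.3% had a log2FC above 0. The shares called over all genes were 4.17% higher and 1.01% lower by edgeR, and 7.08% and 2.35% by DESeq2. *NDUFV2*, which with *NDUFV1* forms part of the NADH-oxidizing module, was at 9.07 and 11.6 CPM in sgCtrl 1 and 2, compared with 3.89, 3.43, and 2.26 CPM across the knockout pools. The groups did not overlap (log2FC -1.68, SE 0.43, adjusted p = 0.0549). Of its last 300 transcript bases, 251 lie in exons of ENSG00000265257 on the same strand, and no count of that gene was analysed here. *NDUFV1*, the flavin-binding subunit at which NADH is oxidized, was at 181 and 325 CPM in sgCtrl 1 and 2, compared with 207, 187, and 184 CPM across the knockout pools (log2FC -0.39, adjusted p = 0.512), with overlapping groups.

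*NDUFS3*, a core subunit of the module that passes electrons to ubiquinone, was at 159.8 and 173 CPM in sgCtrl 1 and 2, compared with 508, 209, and 263 CPM across the knockout pools (log2FC 0.97, adjusted p = 0.193). *NDUFS1*, the largest core subunit, which holds several iron-sulfur clusters, was at 110.1 and 75.7 CPM in sgCtrl 1 and 2, compared with 81.1, 70.2, and 66.8 CPM across the knockout pools (log2FC -0.35, adjusted p = 0.515).

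The iron-sulfur subunit *NDUFS8* separated the groups by a narrow margin, at 149 and 149 CPM in sgCtrl 1 and 2, compared with 119, 109, and 117 CPM across the knockout pools (log2FC -0.38, adjusted p = 0.440). *NDUFS7*, which holds the last iron-sulfur cluster before ubiquinone, was at 0.313 and 4.47 CPM in sgCtrl 1 and 2, compared with 3.76, 3.61, and 5.74 CPM across the knockout pools, of which the first value lies below the 0.938 CPM that 3 counts amount to in that library. Its log2FC of 0.85 (adjusted p = 0.551) therefore rests on few counts.

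No assembly factor of the NDUFAF series passed the test over all 5 pools. Of 8 genes, all tested, 0 were called by edgeR or by DESeq2, 0 reached an unadjusted p under 0.05, 4 had a log2FC above 0, and the median was -0.04. Over all genes, edgeR called 4.17% higher and 1.01% lower, and DESeq2 called 7.08% and 2.35%. Of all genes, 14.1% reached that p with a positive log2FC and 9.23% with a negative one, and 48.3% had a log2FC above 0. *NDUFAF8*, which works with *NDUFAF5* in the modification of *NDUFS7*, was at 129 and 505 CPM in sgCtrl 1 and 2, compared with 717, 493, and 584 CPM across the knockout pools (log2FC 0.92, adjusted p = 0.324). Control pool 2 was within the range of the knockout pools, and only control pool 1 was low. Without control pool 2, *NDUFAF8* was called (log2FC 2.25, adjusted p = 0.0166). *NDUFAF2*, a chaperone of a late assembly step, was at 51.3 and 49.5 CPM in sgCtrl 1 and 2, compared with 134, 73.1, and 57.1 CPM across the knockout pools (log2FC 0.81, adjusted p = 0.254). In the NDUFAF series it was the sole gene with all knockout pools above both controls. *NDUFAF4*, a membrane-associated factor that acts with *NDUFAF3*, was at 47.5 and 20.6 CPM in sgCtrl 1 and 2, compared with 31.9, 17.9, and 17.2 CPM across the knockout pools (log2FC -0.60, adjusted p = 0.438). *NDUFAF1*, *NDUFAF3*, *NDUFAF5*, *NDUFAF6*, and *NDUFAF7* had log2-fold changes of -0.13, 0.03, 0.21, -0.20, and -0.11. For *NDUFAF3* and *NDUFB4* the sign turned negative when libraries were scaled by their totals alone.

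*NDUFA4* carries a complex I name, but its protein is a subunit of complex IV, cytochrome c oxidase. It was at 13.8 and 2.98 CPM in sgCtrl 1 and 2, compared with 75.5, 19.5, and 27.5 CPM across the knockout pools. All knockout pools exceeded both controls, although the spread within each group was wide (log2FC 2.29, SE 0.73, adjusted p = 0.0997). The log2FC was 3.79 without control pool 1, 1.60 without control pool 2, and 1.485 without sgMTSS1_1, and DESeq2 called *NDUFA4* (adjusted p = 0.0113). Its paralogue *NDUFA4L2*, known as a target of hypoxia signalling, had 1 and 0 counts in sgCtrl 1 and 2, compared with 4, 0, and 0 across the knockout pools, and was not tested.

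Processed pseudogenes of complex I genes are copies of their mRNAs, and reads from near-identical stretches can be assigned to either or be dropped. The annotation lists 63 pseudogenes named after members, of which 28 had counts analysed here and 10 were tested. Of these, 2 rose and 0 fell, against 4.17% and 1.01% of all genes. *NDUFB8P2* (chr17:59885015-59885552, plus strand), on the opposite strand within *TUBD1*, had 17 and 6 counts in sgCtrl 1 and 2, compared with 2136, 724, and 1075 across the knockout pools. This amounted to 5.32 and 1.79 CPM in sgCtrl 1 and 2, compared with 277, 131, and 187 CPM across the knockout pools (log2FC 5.80, SE 0.58, adjusted p = 0.00457), so that the groups were far apart. *TUBD1* itself, a tubulin gene, averaged 10.4 ± 0.511 CPM over the control pools (SD, n = 2) and 13.1 ± 2.23 CPM over the knockout pools (SD, n = 3) (log2FC 0.34). *NDUFB1P1* (chr3:48181547-48181726, plus strand), on the opposite strand within *CDC25A*, had 14 and 2 counts in sgCtrl 1 and 2, compared with 1331, 133, and 176 across the knockout pools (log2FC 4.93, SE 1.10, adjusted p = 0.0357), and kept its call in 11 of 14 alternatives. *CDC25A*, a cell cycle phosphatase gene, had a log2FC of 1.07 (adjusted p = 0.0618).

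**Figure D4:**
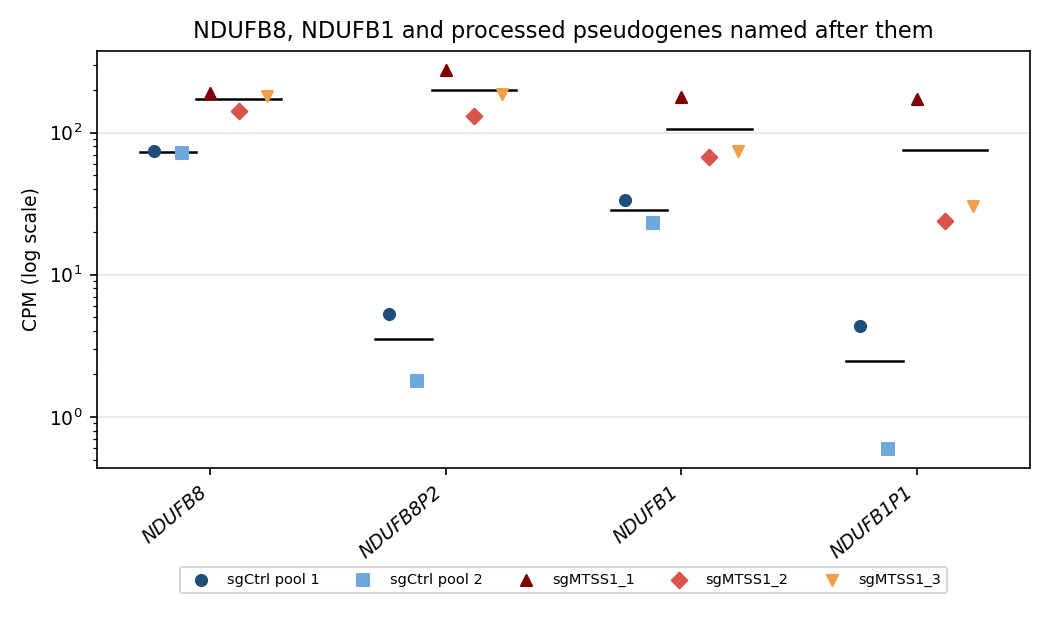
CPM (log scale) of *NDUFB8*, *NDUFB1*, and the pseudogenes named after them in each pool, with lines at the group means. *NDUFB8P2* is at 5.32 and 1.79 CPM in the control pools and at 131 to 277 CPM in the knockout pools, a wider gap than that of *NDUFB8* itself.

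Of the 489 windows of 50 bases in *NDUFB8P2*, 19 also occur in the *NDUFB8* transcript, and for *NDUFB1P1* and *NDUFB1* this was 21 of 131, so most windows of either pseudogene differ from the parent transcript by at least 1 base. Adding the counts of pseudogenes to their parent genes, an analysis chosen after seeing the data, left 3 genes called higher (*NDUFB1*, *NDUFB7*, and *NDUFB8*) and 1 called lower. *NDUFB8* then stood at 79.7 and 73.9 CPM in sgCtrl 1 and 2, compared with 468, 273, and 369 CPM across the knockout pools (log2FC 2.27, adjusted p = 0.0126), and *NDUFB1* had a log2FC of 2.54 (adjusted p = 0.0459). *NDUFV2* with its pseudogene had a log2FC of -0.70 (adjusted p = 0.357) in place of -1.68. Whether the reads of these pseudogenes came from their own loci was not tested.

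The 7 core subunits encoded by mitochondrial DNA form the proton-pumping part of the membrane arm. By edgeR 0 of 7 were called, whereas 3 had an unadjusted p under 0.05 and DESeq2 called *MT-ND1* higher and *MT-ND5* lower. A log2FC above 0 was found for 2, and the median was -0.58. Of all genes, 14.1% reached that p with a positive log2FC and 9.23% with a negative one, and 48.3% had a log2FC above 0. The shares called over all genes were 4.17% higher and 1.01% lower by edgeR, and 7.08% and 2.35% by DESeq2. *MT-ND1*, at the junction of the arms, was at 1017 and 856 CPM in sgCtrl 1 and 2, compared with 2241, 1828, and 2059.6 CPM across the knockout pools, with all knockout pools higher (log2FC 1.13, adjusted p = 0.0934). *MT-ND5*, at the far end of the membrane arm, was at 4193 and 2158 CPM in sgCtrl 1 and 2, compared with 1213, 1436, and 1314 CPM across the knockout pools, with all knockout pools lower (log2FC -1.27, adjusted p = 0.0898). *MT-ND2* and *MT-ND4*, the other antiporter-like subunits, were likewise below both controls in all knockout pools, with log2-fold changes of -0.90 and -0.58 (adjusted p = 0.175 and 0.429). *MT-ND3*, *MT-ND4L*, and *MT-ND6* had log2-fold changes of 0.23, -0.20, and -0.83. Mitochondrially encoded genes, not restricted to those for mRNAs, took 13.9% and 8.63% of the counts in sgCtrl 1 and 2. Their share was 6.71% to 7.44% in the knockout pools, so control pool 1 stood apart. The part of this share in the values of single MT-ND genes was not tested.

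**Figure D5:**
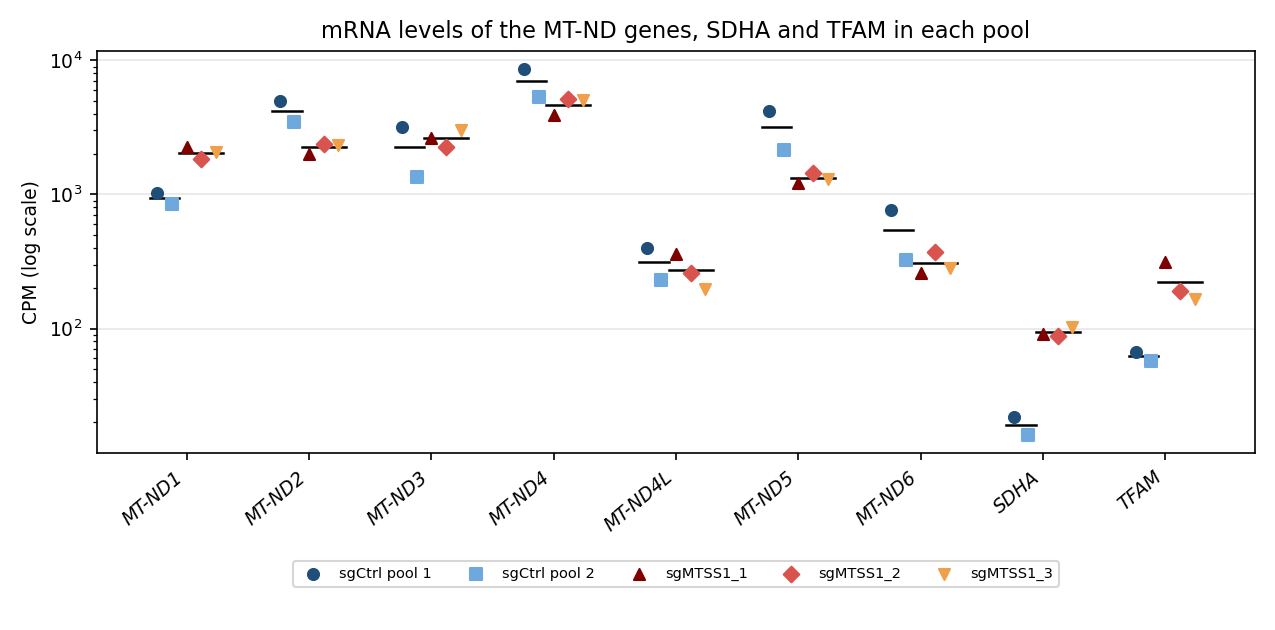
CPM (log scale) of the 7 mitochondrially encoded complex I genes, *SDHA*, and *TFAM* in each pool, with lines at the group means. *MT-ND1* is higher and *MT-ND2*, *MT-ND4*, and *MT-ND5* are lower in every knockout pool than in either control pool, and *SDHA* and *TFAM* are higher.

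Related gene lists are given for comparison. Beside each list stand the shares over all genes: edgeR called 4.17% higher and 1.01% lower, and DESeq2 called 7.08% and 2.35%. An unadjusted p under 0.05 was reached by 14.1% (higher) and 9.23% (lower), and 48.3% had a log2FC above 0. Of 14 assembly factors with other names, 0 were called by edgeR or DESeq2, 1 had an unadjusted p under 0.05, and 10 had a log2FC above 0. The median was 0.47, from -0.30 for *ECSIT* to 1.12 for *COA1*. All knockout pools lay above both controls for *ACAD9*, *AIFM1*, *COA1*, *DMAC2*, and *TMEM126A*, and the groups overlapped for the others (22.2% of all genes lay above). Of 8 genes of complex II, the other entry point into the chain, all tested, 6 had a log2FC above 0, with a median of 0.48. An unadjusted p under 0.05 was reached by 2 of them, and 1 was called, by edgeR and by DESeq2. This was *SDHA*, the flavin subunit, at 21.9 and 16.1 CPM in sgCtrl 1 and 2, compared with 91.3, 88.6, and 103 CPM across the knockout pools (log2FC 2.31, SE 0.32, adjusted p = 0.00976). *SDHA* was called in all 16 alternatives, 1 of which, the addition of pseudogene counts, left its own counts unchanged. It too has pseudogenes named after it, and these were not examined here. Of 9 regulators of respiratory chain genes, 7 were tested, 2 had a log2FC above 0, and the median was -0.14. An unadjusted p under 0.05 was reached by 2 of them, and 1 rose: *TFAM*, which packages and transcribes mitochondrial DNA. It was at 67.2 and 57.2 CPM in sgCtrl 1 and 2, compared with 314, 189.9, and 166 CPM across the knockout pools (log2FC 1.84, SE 0.37, adjusted p = 0.0256). This call was lost without control pool 2 or without any 1 of the knockout pools (adjusted p between 0.0515 and 0.0682). *NRF1* and *YY1*, transcription factors that bind the promoters of many of these genes, had log2-fold changes of -0.02 and -0.40, and the coactivator gene *PPARGC1B* had -0.91 (adjusted p = 0.118).

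Complex I genes have short transcripts, with a median of 758 bases against 2754 bases over all tested genes. The 23 genes under 800 bases had a median log2FC of 0.54, with 19 above 0 (82.6%), and the 22 longer ones had 0.12, with 12 above 0 (54.5%). Over all tested genes, the corresponding medians were 0.18 for 1959 short genes and -0.05 for 12394 longer ones, with 55.8% and 47.2% above 0. The median level of sgMTSS1_1 relative to the other knockout pools was 1.61 for short complex I genes and 1.47 for longer ones. Over all tested genes these values were 1.30 and 0.95. Across the 45 genes, Spearman's rho of log2FC was -0.29 with transcript length and 0.03 with GC content, as a description of genes that share the same 5 libraries. With offsets for GC content and length, the median log2FC was 0.07, against -0.12 over all genes, and *NDUFB7* higher and *NDUFA13* and *NDUFV2* lower were called. The part of transcript length in these values was not tested further.

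Promoter sequences were compared because many complex I genes are known to share binding motifs for NRF1, GABP, and YY1 near their start sites. RefSeq windows (GRCh38.p14) from 250 bases before to 50 bases after the start were found for 39 of 47 genes and searched on both strands. The YY1 motif AAGATGGC occurred in 8 of them (20.5%, against 3.52% of 27305 genes and 6.83% of 9119 tested coding genes). The NRF1 motif, of 10 bases with 1 free position and capitalized for *NDUFA8*, occurred in 7 (17.9%, against 6.98% and 14.0%), and the GABP motif CCGGAAGT in 2 (5.13%, against 4.95% and 10.6%). Overlaps between motifs were not removed. The following stretches of 30 bases, 5′ to 3′ on the strand of the gene, show the motif (capitals) in *NDUFB8* and *NDUFA13*, which edgeR called, and in 3 other genes.
NDUFB8 (YY1, chr10:100529836-100529865, minus strand): tgaagaaggtgAAGATGGCggtggccaggg
NDUFA3 (YY1, chr19:54102865-54102894, plus strand): ccgcggagacaAAGATGGCtgcgagtaagt
NDUFS4 (YY1, chr5:53560649-53560678, plus strand): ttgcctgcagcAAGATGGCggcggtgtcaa
NDUFA8 (NRF1, chr9:122159765-122159794, minus strand): tgttgccggatGCGCATGCGCaggcgccgt
NDUFA13 (GABP, chr19:19516204-19516233, plus strand): tccgcccgggaCCGGAAGTgtgggatactg
The YY1 motif lies just downstream of the listed start in each of its examples. A match describes the letters of the window and is not evidence of binding.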

How the data were processed

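Raw counts per Ensembl gene for 2 control and 3 *MTSS1* knockout pools of TF-1 cells were used as deposited. According to the paper's methods and the submitters' processing notes, the authors prepared QuantSeq 3′ FWD libraries, checked reads with FastQC 0.11.9, trimmed them with BBDuk, aligned them to GRCh38 with HISAT2 2.1.0, and kept uniquely mapped reads with SAMtools 1.10; the deposited counts are not normalized. Unique mapping can lower the counts of genes with near-identical copies. The counting program, annotation, and use of strand are not given in the sources used here.

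Genes were kept by filterByExpr (minimum count 10; 14391 of 27328 genes) and tested with edgeR 4.0.16 (R 4.3.3) by the quasi-likelihood test with TMM factors and the condition alone; p-values were adjusted over all tested genes by the Benjamini-Hochberg method. The biological coefficient of variation was 32.2%. Totals were 2849979 to 8854899 counts per library, and 3 counts corresponded to 0.389 to 0.938 CPM, for counting error only. Nothing in the sources says that the pools came from separate experiments, so p-values measure the spread between these pools, which remained after the paper's exclusion of outlying pools.

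Names, positions, and lengths come from GENCODE release 44 (27211 IDs matched a symbol). Named genes were *MTSS1*, called members, core subunits, assembly factors, *NDUFB9*, *NDUFA13*, *NDUFA4*, *NDUFA4L2*, the largest rise and fall per role, mitochondrially encoded subunits, members removed by the filter, and overlapping genes; other genes named in the text, among them the pseudogenes and *TFAM*, were chosen after their values were seen. A member covered by this rule is counted in the totals but not reported here. Members and lists were chosen with earlier results of these data known. Alternatives were DESeq2 1.42.0, limma-voom 3.58.1, other scalings and filters, thinning, GC and length offsets (mgcv 1.9.3), a replicate block, and each pool left out. The 16 alternatives also include the addition of pseudogene counts to parent genes, chosen after seeing the data. It left unchanged the counts of *SDHA* and of members without a counted pseudogene, such as *NDUFA13*. On simulated data for this comparison, edgeR called 74% of 200 genes changed 4-fold and 11 unchanged genes among 13975 tested genes. It called 0 of 13923 when no gene was changed. DESeq2 called 67% and 6 unchanged genes, and 0 when no gene was changed. Counts were drawn gene by gene from the dispersion trend fitted by edgeR, without a shift shared by the genes of a pool. They therefore cannot show how such a shift affects the calls. Figures were made with matplotlib 3.10.9.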

Additional observations from a re-analysis of the deposited data

How the results depend on the processing

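*NDUFA13* kept its direction and its call in all 16 alternatives, *NDUFB7* lost its call in 2, and *NDUFB8* in 10; for single genes, 819 of the values under alternatives kept direction and side of the threshold, 54 passed it newly, 19 lost it, and 46 changed sign. Against 2 members higher and 1 lower, DESeq2 called 9 and 2, limma-voom 4 and 1, scaling by totals 2 and 2, RLE factors 1 and 1, no filter 10 and 1, a minimum of 10 counts in every library 4 and 2, thinning to the smallest total 4 and 2, and GC and length offsets 1 and 2. Over all genes, against 745 calls, DESeq2 gave 1357 and no filter 1374. Scaling by totals moved the median log2FC of all genes to -0.17 and that of members to 0.28, so members lay above the median of all genes in either case. Leaving out 1 pool at a time gave 0 to 5 members higher, 1 to 2 lower, a member median of 0.0088 to 0.69, and 111 to 1349 genes called; the lowest counts were without sgMTSS1_1 (111 genes, of which 0 members higher) and the highest without control pool 1 (1349 genes, 5 members higher).

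The sources used here give no shared handling for equal pool numbers. The difference between control pools 1 and 2 correlated across 14391 genes with that between sgMTSS1_1 and sgMTSS1_2 at r = 0.17 and with that between sgMTSS1_1 and sgMTSS1_3 at r = 0.19. In a replicate block sgMTSS1_3, the only pool numbered 3, has a term of its own, so the log2FC rests on the other pools. Such a block called 9 members higher and 1 lower, and the block with GC and length offsets 3 and 1, with 472 genes in all. The cause of these differences was not tested.

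None of the genes whose log2FC changed sign was called in the analysis reported above. With GC and length offsets they were *MT-ND3* -0.24, *NDUFA2* -0.19, *NDUFAF3* -0.28, *NDUFB4* -0.27, *NDUFS6* -0.10. With the block they were *MT-ND4L* 0.021, *NDUFAF1* 0.081. With block and offsets they were *MT-ND3* -0.38, *NDUFA2* -0.099, *NDUFAF3* -0.018, *NDUFB2* -0.0092, *NDUFB4* -0.23, *NDUFS6* -0.011. With totals they were *NDUFAF3* -0.16, *NDUFB4* -0.064. Without a filter they were *NDUFAF1* 0.022, *NDUFAF7* 0.037, *NDUFV3* 0.038. With thinning they were *NDUFAF3* -0.021. Leaving out 1 pool at a time gave, for genes whose sign changed in any such analysis, *MT-ND3* -0.24 to 0.99, *MT-ND4L* -0.52 to 0.26, *MTSS1* -1.04 to 0.16, *NDUFA11* -0.63 to 0.016, *NDUFA2* -0.045 to 0.40, *NDUFA5* -0.087 to 0.40, *NDUFA6* -0.0028 to 0.54, *NDUFAF1* -0.48 to 0.37, *NDUFAF3* -0.38 to 0.67, *NDUFAF4* -1.06 to 0.14, *NDUFAF5* -0.26 to 1.001, *NDUFAF6* -0.50 to 0.22, *NDUFAF7* -0.20 to 0.026, *NDUFB11* -0.40 to 0.059, *NDUFB3* -0.72 to 2.22, *NDUFB4* -0.22 to 0.55, *NDUFC1* -0.069 to 1.05, *NDUFS4* -0.11 to 0.84, *NDUFS6* -0.12 to 1.11, *NDUFS7* -0.024 to 3.73, *NDUFV1* -0.74 to 0.12, *NDUFV3* -0.41 to 0.33. Depth limits *NDUFS7*, *NDUFB3*, *NDUFA7*, and *NDUFA4L2*, with few counts in some or all libraries.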
